A study of Monodelphis domestica with 6 samples.

Results

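Intermediate filaments are rope-like polymers that give cells and nuclei mechanical strength. Mesenchymal cells such as fibroblasts build their cytoplasmic filaments mainly from vimentin, simple epithelia from paired type I and type II keratins, and neural progenitors add nestin and, later, neuronal subunits such as internexin. The nuclear lamins form a meshwork under the inner nuclear membrane, where A-type lamins rise as cells differentiate and stiffen and B-type lamins are made in nearly all cells. This gene family was followed from opossum skin fibroblasts to the iPSCs reprogrammed from them. The list comprised 10 genes, which are VIM, NES, LMNA, LMNB1, LMNB2, KRT8, KRT18, KRT19, INA and SYNM, and they were chosen by name. KRT8 had no row in the deposited tables, so 9 of 35665 genes were analysed, and KRT19 was listed as LOC100013604.

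The neonatal skin fibroblasts (neoSFs) were untreated wild-type primary cultures of female pups of the inbred *Monodelphis domestica* strains FD2M1 and LSD1, with 1 library per strain. The monoiPSCs were derived from wild-type neoSFs of each strain by nucleofection of episomal plasmids that encode human OCT4, SOX2, NANOG, KLF4, LIN28 and cMYC, with further plasmids for mp53DD and EBNA1, and were grown in a medium with LIF and bFGF. Both lines, named after their strain, were sampled at passages 15 and 25, which gave 4 libraries. Each line contributed both of its passages, so the 4 libraries are not 4 independent reprogramming events, and p-values measure only the spread between these libraries. The neoSFs were read in-house with short single-end reads and the monoiPSCs by a service with longer paired-end reads, so platform and cell type cannot be told apart for any gene.

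The total count was 14278794 and 16982978 in the neoSF libraries and 28684754 to 35564261 in the monoiPSC libraries. The 9 genes took 0.738% and 0.771% of the counts in neoSFs and 0.204% to 0.238% in monoiPSCs. The cell type labels were checked against marker genes, on the scale of normalized read counts (NRC). The 9 fibroblast markers with a row, among them COL1A1, DCN and LUM, summed to an NRC of 1963990 and 2522990 in neoSFs and of 6540 to 11534 in monoiPSCs. The 8 pluripotency markers summed to 44.9 and 50.8 in neoSFs and to 11439 to 14862 in monoiPSCs. Of 8 keratinocyte markers, 4 had a row, and their sum was 58.5 and 156 in neoSFs and 0 to 6.73 in monoiPSCs, with TP63 listed at an NRC of 0 in all 4 monoiPSC libraries. Of 6 skeletal muscle markers, 5 had a row, and their sum was 1801 and 438 in neoSFs and 3319 and 2094 in the FD2M1 line and 6771 and 19999 in the LSD1 line, in each case at passages 15 and 25. The 6 neural markers summed to 1162 and 1017 in neoSFs and to 2880 to 6600 in monoiPSCs. The 5 trophectoderm markers summed to 2078 to 2540 in neoSFs and 3809.7 to 6320 in monoiPSCs. Of these, CDX2 and TEAD4 were higher, and GATA2, GATA3 and PTGES lower, in every monoiPSC library than in both neoSF libraries. The 5 endothelial markers summed to 160.4 to 263 in neoSFs and 74.1 to 152 in monoiPSCs. Of the 6 melanocyte markers, 4 had a row, and their sum of 253 and 402 in neoSFs was mostly MITF and that of 4601 to 15555 in monoiPSCs mostly DCT. The 4 hypoblast markers summed to 419 and 1080.5 in neoSFs, nearly all of it GATA6, and to 2.53 to 30.8 in monoiPSCs. In such bulk libraries fewer cells of a type and less RNA per cell cannot be told apart.

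The first question was how the filament and lamin genes changed between neoSFs and monoiPSCs. VIM, SYNM, LMNA and the row named KRT18 were lower in monoiPSCs, LMNB2 and INA were higher, and NES and KRT19 did not pass the test. Genes entered the test when their NRC reached 20 in each neoSF library or in each monoiPSC library. A gene was called differentially expressed (DE) when edgeR's quasi-likelihood test gave a Benjamini-Hochberg adjusted p no higher than 0.05 and the fold change was 2 or more. Of the 9 genes 8 were tested, and LMNB1 was below the filter. INA passed it only through the monoiPSCs, where it was high. Of the 8 tested genes 6 were DE, against 45.9% of all 13072 genes tested. Of these, 2 were higher, against 24.3% of all genes, and 4 were lower, against 21.6%. The same 6 genes had an unadjusted p under 0.05, against 66.4% of all genes. The libraries of both groups did not overlap for these 6 genes, against 73.2% of all genes tested, with 2 higher, against 36.1%, and 4 lower, against 37.1%. The shares are high for all genes, so the count of called members does not set the family apart. The median log2 fold change of the 8 genes was -2.17, and that of all genes tested was 0.08.

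**Figure D1:**
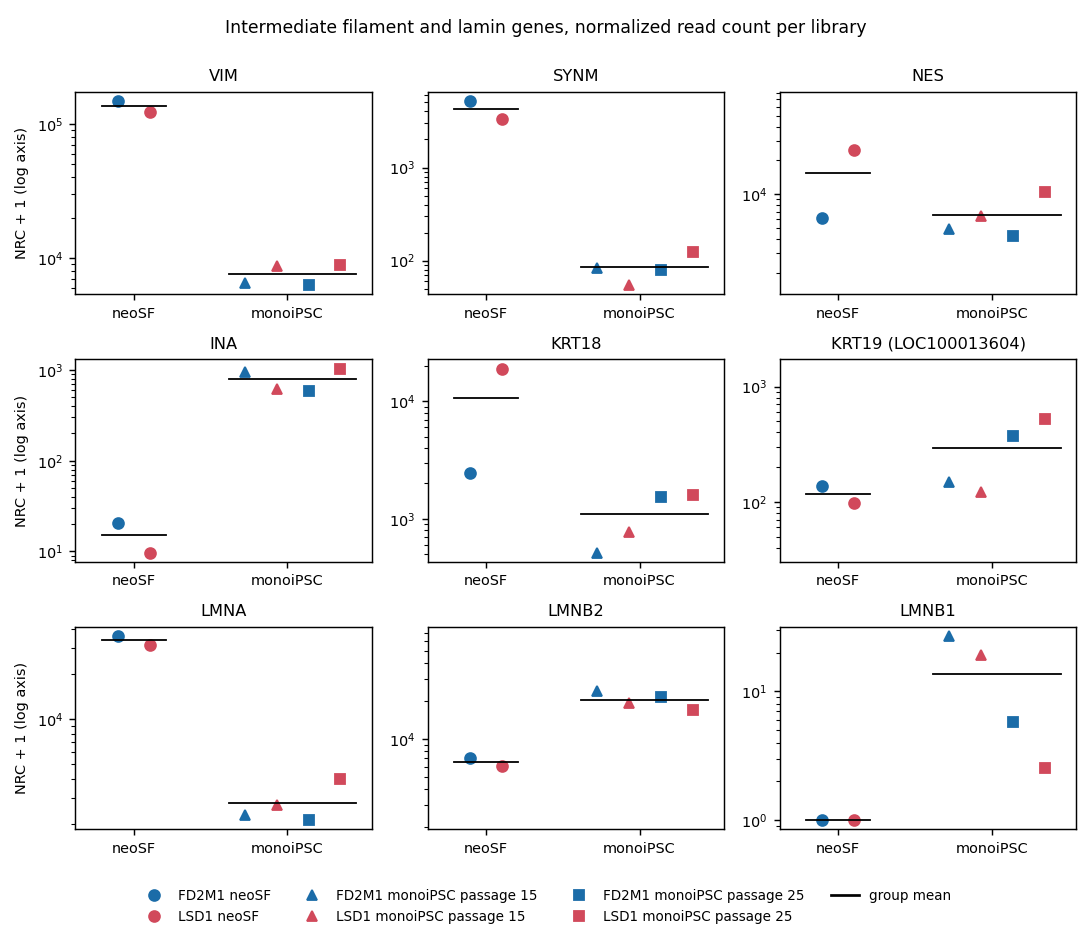
NRC plus 1 on a log axis for the 9 genes, 1 point per library, with circles for neoSFs, triangles for passage 15, squares for passage 25, blue for FD2M1 and red for LSD1. Black lines are group means. VIM, SYNM, LMNA and KRT18 lie lower in every monoiPSC library than in either neoSF library, LMNB2 and INA lie higher, and NES and KRT19 overlap between the groups.

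Vimentin (VIM, gene 100020416, chromosome 8 of MonDom5), the main filament protein of mesenchymal cells, had an NRC of 148706 in FD2M1 and 122813 in LSD1 neoSFs. In the monoiPSCs its NRC was 6514 and 6266 in FD2M1 at passages 15 and 25, and 8738 and 8809.6 in LSD1. Every monoiPSC library lay far below both neoSF libraries, and within each line the passages gave nearly the same value. The mean NRC fell from 135760 ± 18309.5 (SD, n = 2) to 7582 ± 1380.3 (SD, n = 4), with a log2 fold change of -4.07 (standard error 0.22, edgeR adjusted p = 1.72e-05). VIM RNA was still robustly detected in monoiPSCs, at 5.58% of the neoSF mean. The fibroblast marker sum, mostly COL1A1 and FN1, stood at 0.384% of its neoSF mean. Single markers fell to different extents, PDGFRA least, with an NRC of 3036 and 2193 in neoSFs and 91.0 to 1068 in monoiPSCs.

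Synemin (SYNM, gene 100020187, chromosome 1), a large filament protein that polymerises only together with partners such as vimentin or desmin, had the largest fitted decrease of the 8 tested members. Its NRC was 5157 and 3294 in FD2M1 and LSD1 neoSFs. In FD2M1 monoiPSCs it was 83.3 at passage 15 and 77.8 at passage 25, and in LSD1 monoiPSCs 53.6 and 123. All monoiPSC libraries were low, and the highest of them was LSD1 at passage 25, the library with the highest sum of skeletal muscle markers. The log2 fold change of SYNM was -5.55 (standard error 0.33, edgeR adjusted p = 2.42e-05). The part of the muscle genes in the spread of SYNM was not tested. Without LSD1 at passage 25 the log2 fold change of SYNM was -5.81.

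Nestin (NES, gene 103099780, chromosome 2), a filament protein of neural and muscle progenitors, differed mainly between the neoSF cultures. Its NRC was 6143 in FD2M1 fibroblasts and 24777 in LSD1 fibroblasts. The monoiPSCs stood at 4960.1 and 4225 in FD2M1 and 6455 and 10431 in LSD1, at passages 15 and 25. The monoiPSC libraries therefore overlapped with the FD2M1 neoSFs, and NES was expressed strongly in all 6 libraries. The log2 fold change of NES was -1.16 (standard error 0.54, edgeR adjusted p = 0.1002), and the alternatives gave it adjusted p-values between 0.011 and 0.741. DESeq2, which called 46.5% of all genes, called NES lower with a log2 fold change of -1.20 (adjusted p = 0.0386). Without the LSD1 neoSFs the log2 fold change was 0.20, and without the FD2M1 neoSFs it was -1.82 (edgeR adjusted p = 0.011).

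Internexin (INA, gene 100022560, chromosome 1), a neuronal filament subunit, was near the detection limit in neoSFs, with 10 counts in FD2M1 and 5.5 in LSD1. These correspond to an NRC of 19.5 and 8.71. In the monoiPSCs the NRC of INA was 945 and 582 in FD2M1 and 619 and 1036 in LSD1, at passages 15 and 25. Every monoiPSC library was far higher than both neoSF libraries, with no shared order of the passages in the lines. INA rose by a log2 fold change of 5.90 (standard error 0.47, edgeR adjusted p = 6.6e-05), which was 5.46 to 6.48 across the alternatives. Of the neural markers, ELAVL3 was listed at an NRC of 0 in both neoSF libraries and between 360.1 and 913 in monoiPSCs, while PAX6 had NRC values of 2.06 to 140.1 there, the highest in FD2M1 at passage 15. The part of neural gene expression in the level of INA was not tested.

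**Figure D2:**
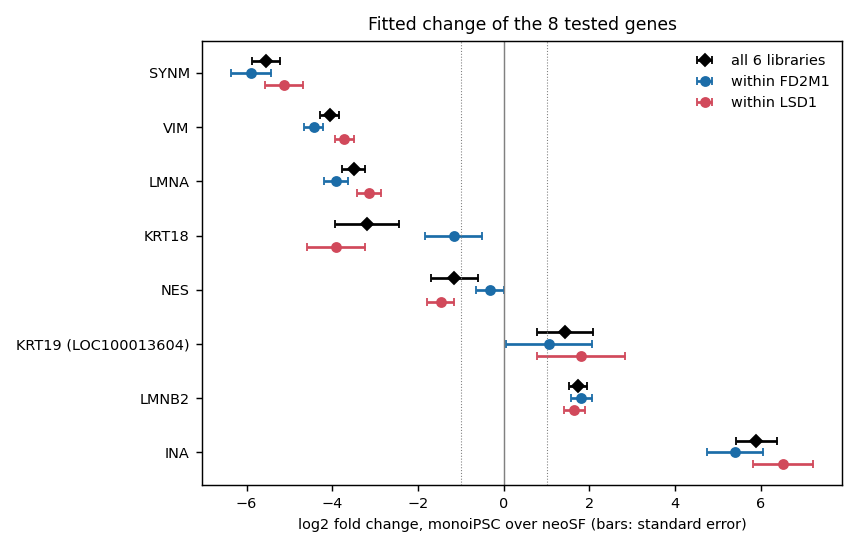
Fitted log2 fold change of monoiPSCs over neoSFs for the 8 tested genes, from all 6 libraries (black) and within each strain (blue FD2M1, red LSD1), with bars of 1 standard error and dotted lines at the 2-fold threshold. Changes of VIM, SYNM, LMNA, LMNB2 and INA lie on the same side of 0 in both strains and past the dotted lines. Those of KRT18 and NES pass the dotted line at -1 in all but NES within FD2M1. KRT19 lies past the dotted line at 1 in every fit, with bars that cross the line.

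The keratin rows need a caution about identity. The row named KRT18 is gene 497044 on chromosome 3 of MonDom5. In the RefSeq table of the newer mMonDom1.pri assembly this gene number carries the name LOC497044 and spans only 1410 bp on chromosome 3, while another gene, 130453605, is called KRT18, spans 4010 bp and lies near KRT8 on chromosome 5. Neither that gene nor KRT8 has a row in the deposited tables, so which copy gave the reads of the KRT18 row cannot be told from the counts.

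KRT18, the type I keratin of simple epithelia that pairs with KRT8, had an NRC of 2466 in FD2M1 neoSFs and 19018.5 in LSD1 neoSFs for this row. In the monoiPSCs the NRC of KRT18 was 514 and 1532 in FD2M1 and 775 and 1595 in LSD1, at passages 15 and 25. The monoiPSC values lay below both neoSF values, but the neoSF libraries differed from each other 7.71-fold. Such a difference is uncommon, since among the 11799 genes whose NRC reached 20 in each neoSF library 4.81% differed 3-fold or more between them. NES, at 4.03-fold, was also among these genes. The log2 fold change of KRT18 was -3.19 (standard error 0.74, edgeR adjusted p = 0.00716), and the alternatives gave adjusted p-values from 0.000998 to 0.156. Without the LSD1 neoSFs the log2 fold change of KRT18 was -1.04 and the call was lost (edgeR adjusted p = 0.156), and without the FD2M1 neoSFs it was -4.01.

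KRT19 (LOC100013604, chromosome 2), the smallest type I keratin and a known trophectoderm and simple epithelial marker, was low in both cell types. FD2M1 and LSD1 neoSFs had an NRC of 135 and 97.7 for this gene. In the monoiPSCs KRT19 was at 149 and 119.7 at passage 15 of FD2M1 and LSD1, and at 373 and 527 at passage 25. The passage 15 libraries thus lay near the neoSFs, LSD1 at passage 15 below the FD2M1 neoSFs, and both passage 25 libraries above them. The log2 fold change of KRT19 was 1.42 (standard error 0.65, edgeR adjusted p = 0.0937), and the adjusted p was 0.0414 to 0.278 across the alternatives. DESeq2 called KRT19 higher with a log2 fold change of 1.38 (adjusted p = 0.0414). Leaving out LSD1 at passage 15 also made KRT19 a DE gene, with a log2 fold change of 1.68 (edgeR adjusted p = 0.0454).

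LMNA (gene 100017764, chromosome 2), which encodes the A-type lamins A and C, reached an NRC of 35903 in the FD2M1 and 31387 in the LSD1 fibroblasts. After reprogramming it was 2292 and 2124 in FD2M1 and 2684 and 4002 in LSD1, at passages 15 and 25. LMNA was low in all 4 monoiPSC libraries, and LSD1 at passage 25 was again the highest of them. The log2 fold change of LMNA was -3.50 (standard error 0.27, edgeR adjusted p = 5.33e-05). The monoiPSC mean was 8.25% of the neoSF mean of 33645 ± 3193 (SD, n = 2). Without LSD1 at passage 25 the log2 fold change of LMNA was -3.75.

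LMNB2 (gene 100020019, chromosome 3), a B-type lamin, moved in the opposite direction. The fibroblasts had an NRC of 7027 in FD2M1 and 6127 in LSD1. After reprogramming it was 24213 and 21532 in FD2M1 and 19150 and 17048 in LSD1, at passages 15 and 25. All 4 monoiPSC libraries lay above both neoSF libraries, with FD2M1 above LSD1 at each passage. LMNB2 rose from a mean NRC of 6577 ± 637 (SD, n = 2) to 20486 ± 3087 (SD, n = 4), a log2 fold change of 1.74 (standard error 0.21, edgeR adjusted p = 0.000368).

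LMNB1 (gene 100016685, chromosome 3), the other B-type lamin, had almost no reads. The neoSF libraries held 0.5 counts in FD2M1 and 0 in LSD1, and the monoiPSC libraries held 46.2 and 7.70 in FD2M1 and 34.3 and 3.00 in LSD1, at passages 15 and 25. LMNB1 was at the floor of 3 counts in both neoSF libraries and, with 3.00 counts, in LSD1 at passage 25. On TMM-scaled counts the mean of the monoiPSCs was at least 2.31-fold higher than the FD2M1 neoSF library would be at 3 counts, the library where 3 counts weigh most. Without FD2M1 at passage 15 this limit was 1.49-fold, and both passage 25 libraries lay below the level of 3 counts in the FD2M1 neoSFs. Such a limit accounts for counting error alone, as PCR duplicates of a molecule are not separate observations. Without the expression filter LMNB1 was tested and not called (edgeR adjusted p = 0.0536). The mMonDom1.pri table lists this gene number as LOC100016685 and holds no gene with the symbol LMNB1, so whether the row covers the whole gene was not tested.

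Count ratios within a library do not depend on the scaling of the libraries, and were used to compare how members shifted relative to each other. The number of LMNA counts per LMNB2 count, a pair chosen after their values were seen, was 5.11 and 5.12 in FD2M1 and LSD1 neoSFs. It was 0.0946 and 0.0986 in FD2M1 monoiPSCs and 0.14 and 0.235 in LSD1 monoiPSCs, at passages 15 and 25. The ratio was thus nearly equal in the neoSF cultures and lower in every monoiPSC library, and it was highest among these in LSD1 at passage 25. On the log2 scale the ratio of LMNA to LMNB2 differed by -5.27 between the groups (two-sided exact permutation test over the libraries, p = 0.0667, which no split of 4 against 2 can go below). Both genes had already been seen to separate the groups in opposite directions, so this p adds no support. Per LMNB1 count, or per 3 counts where LMNB1 had fewer, there were 6134 and 6605 LMNA counts in neoSFs and 88.4, 149, 440 and 2589 in FD2M1 and LSD1 at passage 15 and FD2M1 and LSD1 at passage 25. For LMNB2 these numbers were 1201 and 1289 in neoSFs and 934, 1062, 4456 and 11028 in the monoiPSCs in the same order. In neoSFs the numbers per LMNB1 count are lower limits, since LMNB1 was at the floor there, so whether the groups overlap for LMNB2 cannot be told.

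NES counts per VIM count were 0.0413 and 0.202 in FD2M1 and LSD1 neoSFs and 0.674 to 1.18 in monoiPSCs, where NES and VIM had similar counts. The log2 difference of the ratio of NES to VIM was 3.16 (exact permutation test, two-sided p = 0.0667), 2.02 without the FD2M1 neoSFs and 4.31 without the LSD1 neoSFs. KRT19 counts per KRT18 count were 0.0549 and 0.00514 in neoSFs and 0.154 to 0.33 in monoiPSCs, a log2 difference of 3.86 with the same exact p = 0.0667. It was 2.15 without the LSD1 neoSFs and 5.57 without the FD2M1 neoSFs. Both denominators, VIM and KRT18, had already been seen to separate the groups, so these p-values add no support. VIM counts per KRT18 count overlapped between the groups. FD2M1 neoSFs had 60.3 and LSD1 neoSFs 6.46, the monoiPSC libraries lay between 4.09 and 12.7, and the exact permutation test gave p = 0.333.

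**Figure D3:**
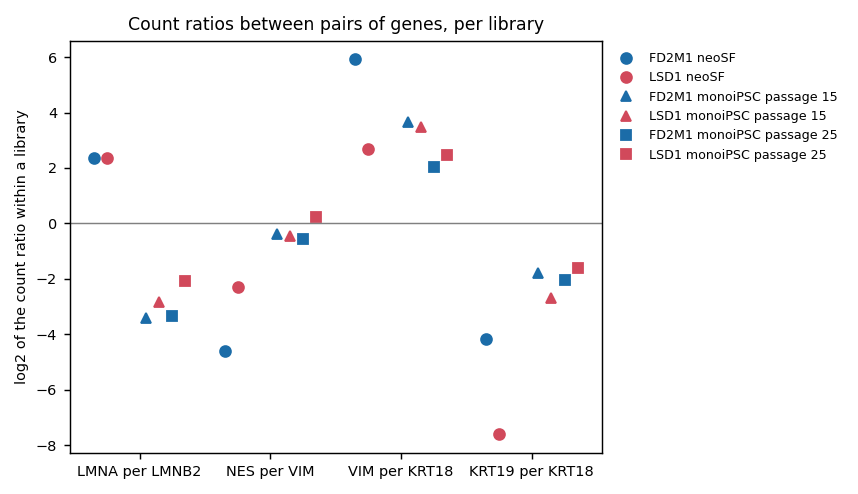
Log2 of the count ratio within each library for 4 pairs of genes, 1 point per library, with circles for neoSFs, triangles for passage 15 and squares for passage 25. LMNA per LMNB2 lies at 2.35 and 2.36 in neoSFs and between -3.40 and -2.09 in monoiPSCs, while VIM per KRT18 overlaps between the groups.

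Both strains were then compared, since each line can be set against the neoSFs of its own strain. VIM fell by 4.44 on the log2 scale within FD2M1 and by 3.72 within LSD1. For LMNA the log2 fold changes were -3.92 and -3.14, for SYNM -5.90 and -5.13, for LMNB2 1.81 and 1.65, and for INA 5.39 and 6.52. In the fits within each strain all 5 of these genes passed the 2-fold threshold, in the same direction as over all libraries. These genes had already been called DE over the same libraries, so their direction within the strains adds no independent support. With 1 neoSF library per strain, the spread in these fits and in the test of the strain difference came from the passage pairs of the monoiPSC lines alone, and the neoSF library is assumed to vary as they do. KRT18 was DE within LSD1, with a log2 fold change of -3.92 (edgeR adjusted p = 0.00565), and not within FD2M1, at -1.17 (edgeR adjusted p = 0.188). NES likewise was DE within LSD1, with a log2 fold change of -1.47 (edgeR adjusted p = 0.0119), and not within FD2M1, at -0.32 (edgeR adjusted p = 0.445). The test of the difference between the strains did not pass for either gene. It gave -2.75 for KRT18 (standard error 0.99, edgeR adjusted p = 0.48) and -1.15 for NES (standard error 0.46, edgeR adjusted p = 0.544). Of the 8 genes 0 passed this test with edgeR and 0 with DESeq2, which called 2.33% of all genes, and 2 had an unadjusted p under 0.05, against 9.13% of all genes tested. The edgeR test of the strain difference called 0.0841% of all genes.

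Within the monoiPSCs, passage 25 was compared with passage 15 with the strain as a covariate. KRT18 was 2.98-fold higher at passage 25 in the FD2M1 line and 2.06-fold higher in the LSD1 line. For KRT19 the folds were 2.50 in FD2M1 and 4.40 in LSD1. The edgeR log2 fold change was 1.29 for KRT18 (standard error 0.20, adjusted p = 0.164) and 1.71 for KRT19 (standard error 0.29, adjusted p = 0.193), so neither gene passed. DESeq2 called both, against 0.939% of all genes, with adjusted p = 0.000146 for KRT18 and 0.000726 for KRT19, and across the alternatives the adjusted p of both reached 0.812. With edgeR 0 of the 8 tested members and 0% of all 12252 genes tested were called for passage, and 2 members, KRT18 and KRT19, had an unadjusted p under 0.05, against 9.35% of all genes. LMNB1, which was not tested, had fewer counts at passage 25 in both lines. VIM had a log2 fold change of -0.04 (standard error 0.14) and LMNB2 of -0.18 (standard error 0.13). For LMNA and NES the lines went in opposite directions, with 0.927-fold and 0.852-fold at passage 25 in FD2M1 and 1.49-fold and 1.62-fold in LSD1. The same held for INA and SYNM, with 0.616-fold and 0.935-fold in FD2M1 and 1.67-fold and 2.29-fold in LSD1.

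**Figure D4:**
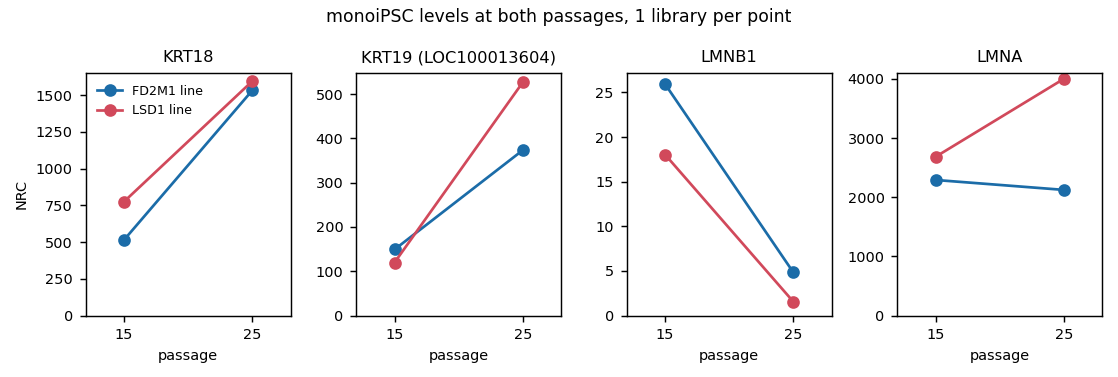
NRC at passage 15 and passage 25 for KRT18, KRT19, LMNB1 and LMNA on linear axes from 0, with 1 library per point and lines that join both passages of the FD2M1 line (blue) and the LSD1 line (red). KRT18 and KRT19 are higher and LMNB1 is lower at passage 25 in both lines, and LMNA is higher in LSD1 alone.

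The LSD1 line was compared with the FD2M1 line with passage as a covariate. At both passages VIM, NES, LMNA and KRT18 were higher in LSD1, and LMNB2 was lower, as was LMNB1, which was not tested. For KRT18 the ratio of LSD1 to FD2M1 was 1.51 at passage 15 and 1.04 at passage 25. For NES and LMNA the ratio of LSD1 to FD2M1 was 1.30 and 1.17 at passage 15 and 2.47 and 1.88 at passage 25. VIM had 1.34 and 1.41 at these passages, and LMNB2 0.791 and 0.792. The log2 difference was 0.46 for VIM (standard error 0.14), 0.85 for NES (standard error 0.23), 0.58 for LMNA (standard error 0.20) and -0.33 for LMNB2 (standard error 0.13). The edgeR adjusted p of these 4 genes was between 0.234 for NES and 0.324 for LMNB2, so 0 of 8 were called, as were 0% of all 12252 genes. Of the 8 tested genes only these 4 had an unadjusted p under 0.05, against 14.2% of all genes tested. DESeq2 gave NES an adjusted p of 0.0272 under the 2-fold threshold and called 0 of the 8 genes and 1.57% of all genes.

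The patterns of the members over the 6 libraries were compared with those of 9938 named genes (9939 for KRT19) with a mean NRC of at least 100, by the root mean square difference of log2 values centred per gene. The genes nearest to VIM were GPX7, TRNP1 and SERPING1, at 0.14 to 0.17. LMNA, which was nearest to TGFB1I1 at 0.15, ranked 24 in the order of VIM, and VIM ranked 32 in the order of LMNA. INA was nearest to MAP7D2 at 0.22 and SYNM to PLAUR, the urokinase receptor, at 0.19. The patterns of KRT18, KRT19 and NES had no gene as near, with XDH at 0.37 for KRT18, RIMS4 at 0.31 for KRT19 and PDGFA at 0.29 for NES. These are descriptions over 6 libraries whose main axis is the cell type.

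Of the other intermediate filament genes most were hardly detected. The 22 genes comprised 14 keratins and 8 others with a row, of which 7 were tested and 10 had at most 3 counts in every library. KRT4, a type II keratin of stratified mucosal epithelia, had 31.6 and 221 counts in FD2M1 and LSD1 neoSFs and at most 1 in a monoiPSC library, and was at least 103-fold lower in monoiPSCs against 3 counts in the library where they weigh most, or at least 31.0-fold without the LSD1 neoSFs. KRT222, a keratin-like gene, had 1 and 0 counts in neoSFs and 43 to 93 in monoiPSCs, and was at least 7.46-fold higher. BFSP2, a lens filament gene, fell by 3.32 on the log2 scale (edgeR adjusted p = 0.00102). Of the 7 tested genes 1 was DE and higher and 2 were DE and lower, together near the 45.9% of all genes, and KRT4, KRT222 and BFSP2 each passed the expression filter through a single cell type. The median log2 fold change of the 7 genes was -1.03. Desmin (DES), the muscle filament and a partner of synemin, had an NRC of 4213 in LSD1 at passage 25 and of 315 to 769 in the other monoiPSC libraries, with 883 and 296 in neoSFs, and was not called. NEFL and NEFM, the neurofilament genes, were not called either, with a mean NRC of 22.9 ± 16.9 and 98.3 ± 55.2 (SD, n = 4) in monoiPSCs. In FD2M1 and LSD1 neoSFs the NRC was 78.0 and 80.8 for NEFL and 37.1 and 390 for NEFM. NEFL passed the expression filter only through the neoSFs, where it was higher than in every monoiPSC library. With strain as a block NEFL was DE and lower (edgeR adjusted p = 0.0154), as it was with limma. For NEFM the log2 fold change was -1.88, a DE call, without the FD2M1 neoSFs and 1.53 without the LSD1 neoSFs. KRT14 (LOC100619366), the basal keratinocyte keratin, had 0 counts in every monoiPSC library and an NRC of 2.93 and 4.49 in neoSFs.

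Among the nuclear envelope partners of lamins LBR and SYNE2 rose and TOR1AIP2 and SYNE1 fell. Of 19 listed genes 17 had a row and were tested, 4 were DE and higher, against 24.3% of all genes, 6 were DE and lower, against 21.6%, and 7 were not called. SYNE3, among those lower, passed the expression filter only through the neoSFs. The median log2 fold change of 0.08 was that of all genes tested at this rounding. LBR, the lamin B receptor of the inner nuclear membrane, had an NRC of 729.8 and 738 in neoSFs and 4379 to 5680 in monoiPSCs. LBR rose by 2.89 on the log2 scale (standard error 0.18, edgeR adjusted p = 2.7e-05), and all 4 monoiPSC libraries were higher than both neoSF libraries. SYNE2, which encodes a nesprin of the outer nuclear membrane, rose by 2.51 on the log2 scale (edgeR adjusted p = 9.16e-05). The largest decreases were those of TOR1AIP2, a torsin activator, with a log2 fold change of -2.17 (edgeR adjusted p = 0.000113), and of SYNE1, the other large nesprin, with -1.80 (edgeR adjusted p = 0.00501). The paralogs SYNE1 and SYNE2 thus changed in opposite directions. SUN1 and SUN2, their binding partners of the inner membrane, were not called, with log2 fold changes of 0.63, under the 2-fold threshold, and 0.08.

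Of the 6 enzymes that farnesylate, cleave and methylate lamin precursors, or bind them, 1 was DE, against 45.9% of all genes. FNTA, the shared alpha subunit of the farnesyl and geranylgeranyl transferases, rose by a log2 fold change of 1.16 (edgeR adjusted p = 0.000889), while FNTB, the beta subunit, had 0.22. The protease ZMPSTE24, which cleaves prelamin A, had a log2 fold change of -0.46 (edgeR adjusted p = 0.123), and the methyltransferase ICMT had -0.67 (edgeR adjusted p = 0.0136), under the 2-fold threshold. RCE1 had 0.74 (edgeR adjusted p = 0.039), also under it except without the FD2M1 neoSFs, where it was 1.22, and NARF had 0.26 (edgeR adjusted p = 0.558).

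Of 10 cytolinkers and keratin partners 9 were tested, 1 was DE and higher and 3 were DE and lower, together near the 45.9% of all genes, with a median log2 fold change of -0.83. EVPL, 1 of those lower, passed the expression filter only through the neoSFs, and its call held in 7 of 12 alternatives. Plectin (PLEC), which ties vimentin filaments to adhesions and to the nucleus, had an NRC of 34195 and 31816 in neoSFs and 2099 to 2588 in monoiPSCs. It fell by 3.67 on the log2 scale (standard error 0.16, edgeR adjusted p = 9.69e-06). Desmoplakin (DSP), which anchors keratins at desmosomes, had an NRC of 182 and 136 in neoSFs and 25.0 to 71.3 in monoiPSCs and a log2 fold change of -1.70 (edgeR adjusted p = 0.02), a call that was lost without the FD2M1 neoSFs (edgeR adjusted p = 0.0958). FAM83H, a gene linked to keratin organisation, rose by 1.79 on the log2 scale (edgeR adjusted p = 0.00572). DST and MACF1, the other large linkers, had log2 fold changes of -0.83 and -0.89, under the 2-fold threshold.

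**Figure D5:**
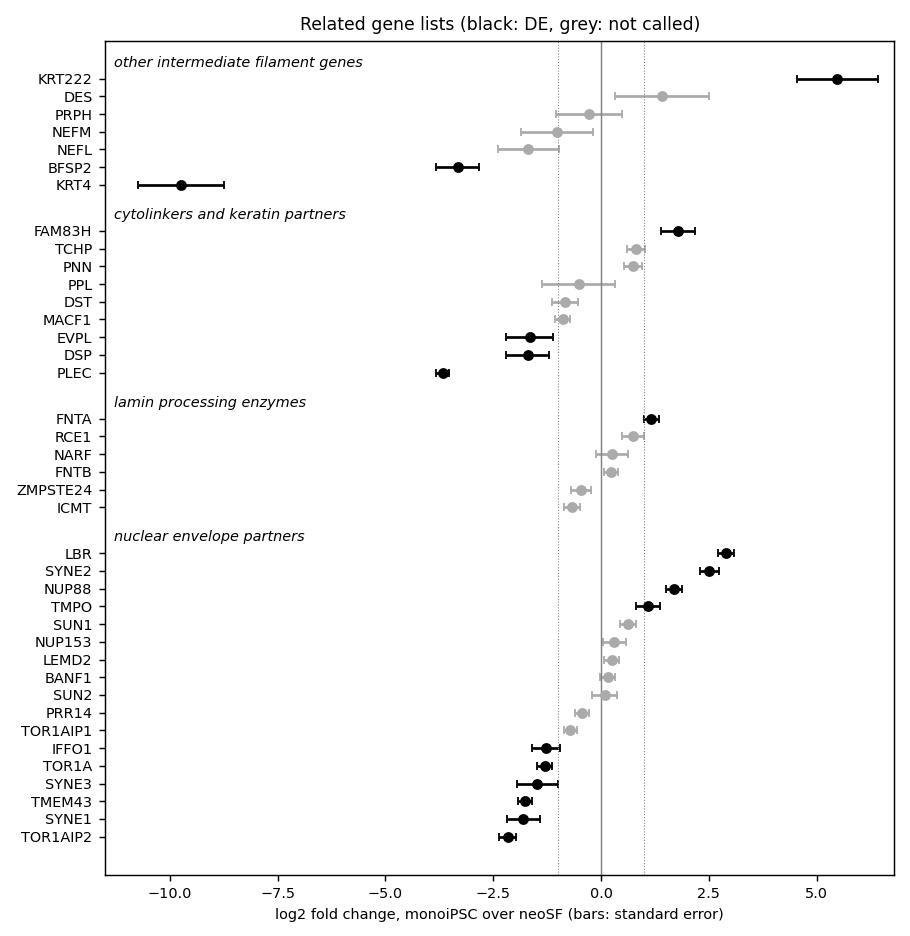
Fitted log2 fold change of monoiPSCs over neoSFs for the tested genes of the 4 related lists, with bars of 1 standard error, black where DE and grey where not called, and dotted lines at the 2-fold threshold. LBR at 2.89 and SYNE2 at 2.51 lie highest among the nuclear envelope partners, and PLEC at -3.67 lowest among the cytolinkers.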

How the data were processed

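RNA-seq data of 6 libraries, 2 of neoSFs and 4 of monoiPSCs, were used. The authors aligned reads to MonDom5 with StrandNGS, filtered them by quality and multiple mapping, counted them on RefSeq genes and deposited estimated counts per gene, named raw counts in the file. Of the values above 0, 85.3% lay more than 0.001 from a whole number, and all were rounded. A table of log2 values, scaled by the authors with DESeq normalization, was deposited too, and the NRC is 2 to the power of these values.

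Genes whose NRC reached 20 in each library of a cell type were tested with edgeR 4.0.16 in R 4.3.3 (TMM scaling, glmQLFit and glmQLFTest, Benjamini-Hochberg adjustment over all genes tested, no block). DESeq2 1.42.0, limma 3.58.1, other scalings and filters, and each library left out in turn were the alternatives. A standard error is the log2 fold change divided by the root of the F statistic. Ratios were computed with 0.5 added to each count on the log2 scale.

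Each monoiPSC line came from neoSFs of its strain by the study's methods, so strain was the block. The strain differences in neoSFs and monoiPSCs correlated over 13072 genes at r = 0.04. All 10 genes are described, and of the related lists those called with the 2 largest rises and falls, and every gene of a list of 6. DES, NEFL, NEFM, KRT14, SUN1, SUN2, DSP, DST, MACF1 and the ratio of LMNA to LMNB2 were added after their values were seen. The members and lists were chosen with earlier results of these data known. Chromosomes are those of MonDom5. The mMonDom1.pri table, used for names, matched 25831 gene numbers, 9 of them members. The genes nearest to LMNB2 in pattern are not reported here.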

Additional observations from a re-analysis of the deposited data

How the results depend on the processing

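Of the fitted log2 fold changes of the 8 tested genes between neoSFs and monoiPSCs, 98 of 104 alternatives kept the direction and the call, and VIM, SYNM, LMNA, LMNB2 and INA did so in all 13 alternatives each. With strain as the replicate block 2 members were higher and 4 lower, as without it, and the block changed no call among the members. Of the other filament genes 3 were lower with the block and 2 without it, NEFL being added. With the block the log2 fold change was -2.77 for KRT18 and -0.93 for NES. NES then passed the p threshold (edgeR adjusted p = 0.0385) but stayed under the 2-fold threshold. NES ranged from -1.82, without the FD2M1 neoSFs, to a reversed 0.20, without the LSD1 neoSFs. Adding 3 counts in place of 0.5 moved the log2 ratio of LMNA to LMNB1 to -4.50 and reversed that of LMNB2 to LMNB1 from -1.09 to 0.77, because LMNB1 is at the floor in neoSFs. With 1 library left out, the log2 ratio difference of VIM to KRT18 ranged from -3.00, without the LSD1 neoSFs, to 0.22, without the FD2M1 neoSFs, that of KRT19 to KRT18 from 2.15 to 5.57, and that of NES to VIM from 2.02 to 4.31. Without the FD2M1 neoSFs 2 lamin processing enzymes were higher, FNTA and RCE1, and 2 cytolinkers were higher, FAM83H and PNN, and 1 lower, PLEC. Without an expression filter 2 other filament genes were higher, KRT222 and KRT23. DESeq2 called 2 members higher at passage 25, and edgeR 0. The cause of the differences between edgeR and DESeq2 was not tested. Upper quartile scaling moved the median log2 fold change of all genes by 0.11. Counts were low for LMNB1 in all libraries, and at or near the floor for INA, KRT4, KRT222 and KRT23 in 1 cell type each.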

Other observations

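By Dixon's test no monoiPSC library was an outlier in the NRC of any of the 9 genes or in the 6 count ratios. LSD1 at passage 25 nevertheless had the highest monoiPSC NRC of VIM, NES, LMNA, KRT18, KRT19, INA and SYNM. It also had the lowest of LMNB2 and LMNB1. A test of each gene alone on 4 libraries cannot tell whether a library differs over several genes. The gap of the farthest library to its neighbour, as a share of the range of the 4 libraries, was largest for the ratio of NES to VIM, at 0.784, where LSD1 at passage 25 was highest, and did not pass Dixon's critical value. KRT23, a type I keratin, had 0 counts in both neoSF libraries and 10.6 to 46 in the monoiPSC libraries, and was at least 3.01-fold higher against 3 counts in the FD2M1 neoSF library. PRPH, the peripheral neuron filament peripherin, had an NRC of 221 in FD2M1 and 1774 in LSD1 neoSFs, a difference between cultures in the same direction as that of NES and KRT18, and of 379 to 1392 in the monoiPSCs.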
